A study of Mus musculus with 6 samples.

Results

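The genes described here encode the proteins of the cytosolic ribosome and their closest relatives. They were chosen by symbol among the autosomal protein-coding genes of the GENCODE M21 annotation (Rpl or Rps followed by a digit, Rplp, or Rpsa, without the Rps6k kinases), and 88 of 20807 genes matched. Of these, 74 encode canonical subunits of the ribosome, with 41 proteins of the large subunit, 3 of its stalk and 30 of the small subunit. The other 14 are paralogs such as Rpl3l, genes named as pseudogenes but annotated as coding, and Rps19bp1, which encodes a binding partner of Rps19. Their DNA methylation was measured in the dentate gyrus, the part of the hippocampus where new neurons arise in adults, in 6 female C57BL/6JRj mice aged 4.5 months. From an age of 6 weeks, 3 mice lived for 3 months in environmental enrichment (ENR) and 3 in standard cages (STD), and neither group carried an engineered allele or received an agent. Reduced representation bisulfite sequencing (RRBS) reads CpGs in fragments cut by the enzyme MspI at CCGG, and the value of a site is the percentage of its reads that were methylated, averaged over all cells of the micro-dissected tissue. These values hold no marker of cell type, so the tissue label was not checked.

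Ribosomal protein genes are expressed in almost every cell and their products are made in equal numbers, since each ribosome holds a single copy of nearly every protein. Their promoters are short, rich in CpGs and free of a strong TATA box, and many carry sites for ETS factors such as GABP, for SP1 and for YY1. CpG-rich promoters of such genes are usually unmethylated, while the transcribed body of an active gene is usually methylated.

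The promoter was taken as 1 kb on either side of the annotated gene start and the body as the rest of the gene, and a region was used where at least 3 sites were measured. Sites of 79 members were measured, 3458 of the 890041 in the table, and 3069 of them (88.7%) lay in promoters. The canonical Rps27 and Rps29 and 7 genes outside the canonical list (Rpl10-ps3, Rps27rt, Rpl9-ps1, Rpl36a-ps1, Rpl36-ps4, Rpl9-ps6 and Rps12-ps3) had no measured site. Promoters of 76 members and bodies of 15 passed the minimum, and 13 members had both. The members are short, with a median length of 3238 bp against 1.763e+04 bp for all genes, and a body that passed held a median of 7 sites against 13.

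The 6 libraries were not alike. Over all sites the mean methylation was 24.2% to 24.3% in STD mice 1 and 2 and 23.9% to 24.2% in ENR mice 1 and 2, and it was 22.5% in STD mouse 3 and 21.3% in ENR mouse 3. At sites of intermediate methylation (20% to 80% on average) the libraries numbered 3 stood at 43.6% and 37.6%, below the 50.9% to 52.4% of the other libraries. In both groups the library numbered 3 was thus the lowest, and leaving out both gave 0 calls by housing for member promoters and bodies, as with all 6. Read depth per site is unknown beyond the authors' minimum of 10 reads, so that 1 read can be worth up to 10 percentage points.

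Upstream stretches of 3 members are shown because they contrast the methylated promoters of Rpl10l and Rpl39l with a nearly unmethylated one, that of Rpl37, with the CpGs measured in capitals. They are RefSeq sequences of GRCm38.p6, the build called mm10, read 5′ to 3′ on the gene's strand and kept clear of annotated exons. Rpl39l and the choice of Rpl37 over Rpl15, with which it tied for measured sites in ETS matches, were decided after their values were seen. Rpl10l lies at chr12:66284402-66284651 on the minus strand, Rpl39l at chr16:10169978-10170225 on the plus strand, and Rpl37 at chr15:5116363-5116612 on the plus strand.
Rpl10l: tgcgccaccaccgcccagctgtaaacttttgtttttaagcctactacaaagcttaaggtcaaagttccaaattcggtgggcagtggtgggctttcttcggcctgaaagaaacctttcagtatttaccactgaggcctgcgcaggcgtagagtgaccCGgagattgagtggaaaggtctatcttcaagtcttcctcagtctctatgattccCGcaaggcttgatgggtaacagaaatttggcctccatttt
Rpl39l: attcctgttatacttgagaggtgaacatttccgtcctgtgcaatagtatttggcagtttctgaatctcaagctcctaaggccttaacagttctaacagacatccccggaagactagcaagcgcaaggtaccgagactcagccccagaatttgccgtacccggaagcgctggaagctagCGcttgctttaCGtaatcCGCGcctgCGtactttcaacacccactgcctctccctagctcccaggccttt
Rpl37: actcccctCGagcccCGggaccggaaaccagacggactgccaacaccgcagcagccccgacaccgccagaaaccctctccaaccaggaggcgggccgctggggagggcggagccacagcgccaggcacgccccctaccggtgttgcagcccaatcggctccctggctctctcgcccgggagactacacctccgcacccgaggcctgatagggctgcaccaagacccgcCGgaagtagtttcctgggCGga
The Rpl10l stretch has 8 CpGs, of which the 2 measured stood at 100% and 96.4%. In Rpl39l, 5 of 12 CpGs were measured at 9 sites, counting each strand as a site, and these ranged from 88.6% to 100%. In Rpl37, 4 of 21 CpGs were measured at 5 sites, and these ranged from 0% to 5.69%. All 3 stretches end at or within 2 bases of the RefSeq start, but the CpGs measured do not lie at the same distances from it, at 94 and 40 bases in Rpl10l, 72 to 46 in Rpl39l, and 242, 235, 22 and 4 in Rpl37.

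Most ribosomal protein promoters were close to unmethylated. Of the 76 promoters, 70 (92.1%) lay below 5%, against 86.0% of the 12817 promoters of all genes. Below 10% lay the same 70, against 91.0% of all genes. The median member stood at 1.42% and the median gene at 1.61%. The mean over members was 5.44% ± 0.234 (SD over 6 mice), and over all genes 5.50% ± 0.311. Thus the family mean was set by a few genes, since the 69 canonical promoters alone averaged 2.07% ± 0.136 and the 7 other promoters 38.7% ± 1.28.

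Within the canonical list, promoters were low in each class of protein. The 40 large subunit genes averaged 2.17% ± 0.229, the 26 small subunit genes 1.99% ± 0.121, and the 3 stalk genes (Rplp0, Rplp1 and Rplp2) 1.44% ± 0.601. The lowest of all was Rps23, a protein of the decoding centre, at 0.471% ± 0.282 over 29 sites. The promoters with most sites were also low. Rpl36al, the autosomal relative of the X-linked Rpl36a, had 140 sites and stood at 1.40% ± 0.366. Rpl13 had 99 sites and stood at 1.60% ± 0.540, and Rpl7 had 89 and stood at 1.17% ± 0.573. These 3 genes encode proteins of the large subunit.

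**Figure D1:**
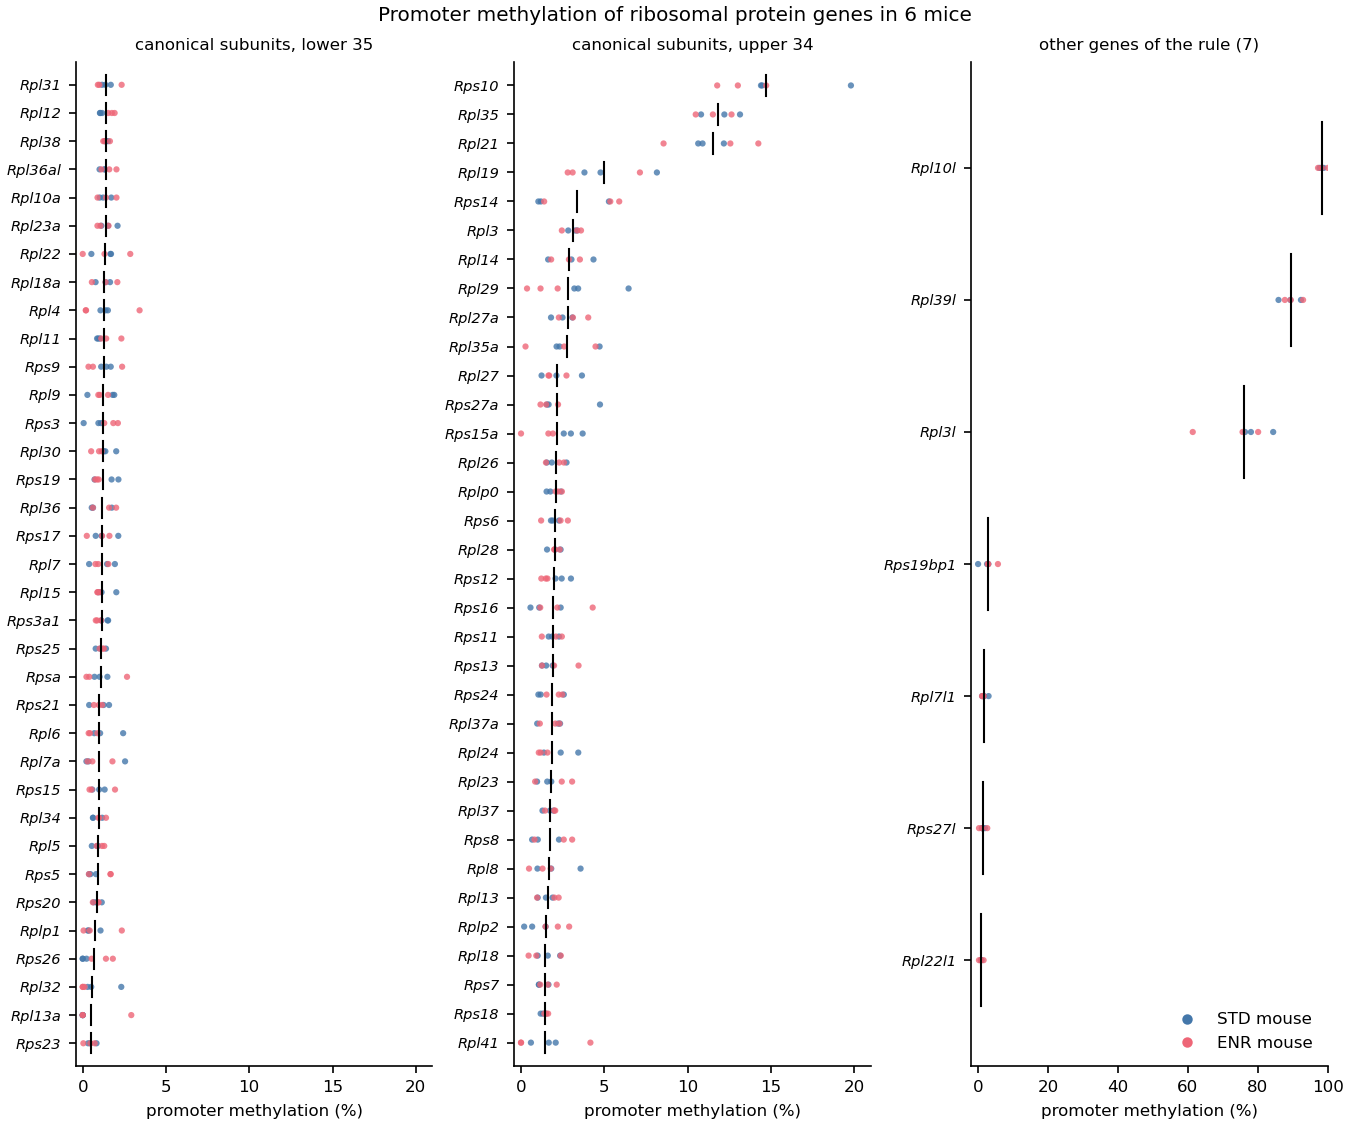
Promoter methylation in percent (horizontal axis) of 76 ribosomal protein genes, with 1 point for each mouse (blue STD, red ENR) and a bar at the mean of 6 mice. Rpl10l, Rpl39l and Rpl3l lie at 76.0% to 98.3% in the right panel, whose axis runs to 100%, and among canonical genes Rps10, Rpl35 and Rpl21 stand apart at 11.5% to 14.7%.

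Promoters at 50% or more were found in 3 of 76 members (3.95%), against 2.86% of all genes, and all 3 are paralogs. Rpl10l (chr12:66283379-66284401, minus strand), an intronless copy of the X-linked Rpl10 that is expressed in testis, stood at 98.2%, 97.6% and 98.8% in the STD mice and at 98.2%, 100% and 97.2% in the ENR mice, over 12 sites. Rpl39l (chr16:10170226-10174911, plus strand), a relative of Rpl39 also known from testis, stood at 89.3%, 85.9% and 92.3% in STD and at 92.9%, 87.7% and 89.4% in ENR, over 18 sites. Both genes were thus highly methylated in every mouse, and their housing groups overlapped.

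Rpl3l (chr17:24727820-24736143, plus strand), the relative of Rpl3 expressed in skeletal and heart muscle, stood at 84.4%, 78.0% and 76.3% in STD and at 75.6%, 80.1% and 61.4% in ENR. The lowest value came from ENR mouse 3, and the groups overlapped. Its 9 sites all lay downstream of the start, between 357 and 879 bp, and its RefSeq window of 250 bases before to 50 after the start holds only 2 CpGs, so the start itself was not measured. Its parent Rpl3 stood at 3.15% ± 0.424 over 64 sites. In each mouse Rpl3l was above Rpl3, by 72.8 percentage points ± 7.5 on average (exact sign-flip permutation test, two-sided, p = 0.03125, the smallest that 6 mice allow, adjusted over 3 pairs 0.09375).

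The other paralogs had low promoters. Rpl7l1, which takes part in ribosome assembly, stood at 1.66% ± 0.699 and its parent Rpl7 differed from it by 0.490 points ± 0.612 (exact permutation p = 0.125, adjusted 0.1875). Rpl22l1 stood at 0.874% ± 0.426, and its difference from Rpl22 was -0.468 points ± 0.939 (exact permutation p = 0.2812, also after adjustment). With 6 mice these tests do not show that the pairs are alike. The range of the difference per mouse was -0.286 to 1.32 points for Rpl7l1 and -2.06 to 0.30 for Rpl22l1. Rps27l, a relative of Rps27 induced by p53, stood at 1.38% ± 0.811, and Rps19bp1 at 2.82% ± 1.80. Rps27 itself had no measured site, and the parents of Rpl10l and Rpl39l are X-linked, so that those 3 pairs were not compared.

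Among canonical genes, only Rps10, Rpl35 and Rpl21 exceeded 5%. Rps10, a protein of the small subunit, stood at 19.8%, 14.5% and 14.4% in STD and at 14.7%, 11.8% and 13.0% in ENR, over 6 sites. Rpl35, at the exit of the peptide tunnel, ranged from 10.5% to 13.2% in the 6 mice over 60 sites. Rpl21, another large subunit protein, ranged from 8.56% to 14.3% over 24 sites. In no mouse did any of the 3 fall below 5%, and their housing groups overlapped.

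In Rpl21 and Rpl35 the methylation sat at the upstream edge. The 5 sites of Rpl21 more than 0.4 kb upstream averaged 49.6%, and its other promoter sites 1.51%. The 11 such sites of Rpl35 averaged 55.2%, and its other promoter sites 2.06%. In Rpl3 the 11 sites upstream of that limit averaged 14.4% and the rest of the promoter 0.811%. The unmethylated stretch of these genes was therefore narrower than the 2 kb window used for the promoter.

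For Rps10 and Rpl35 the annotated start mattered. The GENCODE gene starts of Rps10 and Rpl35 lie 1425 and 493 bp upstream of the RefSeq starts. With the RefSeq start, chosen as an alternative after seeing the data, the Rps10 promoter stood at 1.63% ± 0.303 over 53 sites. Every site outside that promoter then counted as body, also those upstream of it, and for Rps10 these averaged 13.6% ± 2.77 over 8 sites. They include the 6 sites upstream of the GENCODE start, so they do not give the level of the gene after the RefSeq start. The Rpl35 promoter then stood at 5.06% ± 1.41 and the 11 sites outside it at 43.7% ± 3.90. Those of Rpl35 also include sites upstream of the GENCODE start, so 43.7% is not the level of its gene body. The 4 sites of its GENCODE body, which are among the 11, averaged 10.1%. The high promoter of Rps10 thus rested on the choice of start.

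Across the family, methylation rose on both sides of a low stretch around the start. Among members with a promoter below 50%, sites within 0.25 kb upstream averaged 1.56% ± 0.392 (42 genes) and sites within 0.25 kb downstream 1.43% ± 0.245 (59 genes), against 2.67% ± 0.141 and 2.47% ± 0.126 for all genes with such promoters. From 0.5 to 0.75 kb downstream, members stood at 1.5% ± 0.256 (43 genes) and all genes at 3.82% ± 0.259. Members were thus lower than the average gene from 0.5 kb upstream to 1 kb downstream, by description, since members were not tested as a group.

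Farther out the order changed. From 0.75 to 0.5 kb upstream, members averaged 13.2% ± 2.63 (18 genes) and all genes 7.91% ± 0.854. From 1 to 2 kb downstream, members stood at 19.7% ± 1.03 (14 genes) and all genes at 14.2% ± 1.25, and from 2 to 5 kb at 22.5% ± 5.35 (10 genes) against 37.9% ± 2.88. These outer distances are thinly filled, with fewer than 20 members each. By annotation, promoter sites of members other than Rpl10l, Rpl39l and Rpl3l averaged 1.49% ± 0.307 in exons and 1.48% ± 0.256 in introns. Their sites upstream of the start averaged 5.05% ± 0.778.

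**Figure D2:**
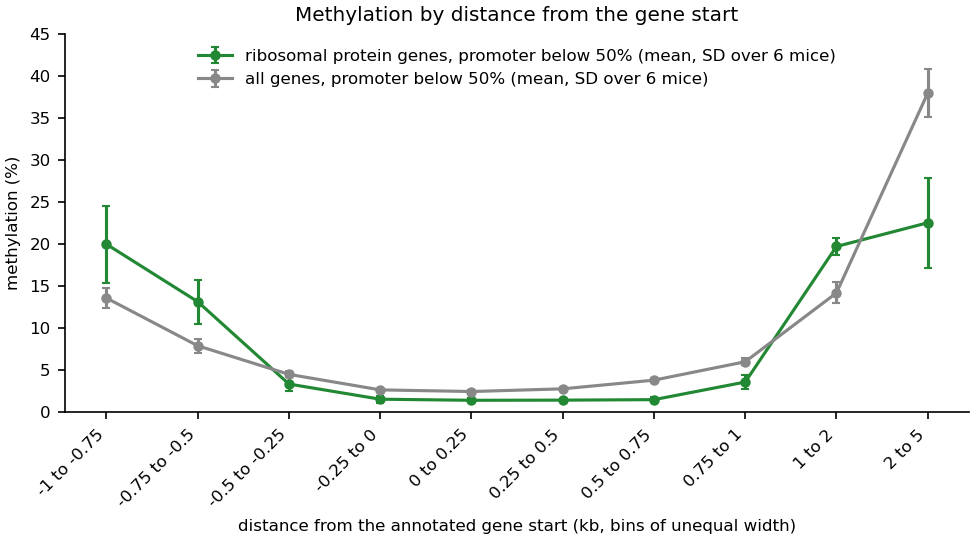
Mean methylation in percent (vertical axis) against distance from the annotated gene start in kb (bins of unequal width), for ribosomal protein genes (green) and all genes (grey) with promoters below 50%; bars are the SD over 6 mice. Members lie at 1.43% to 1.56% from 0.25 kb upstream to 0.75 kb downstream, below all genes, and rise to 19.7% in the bin from 1 to 2 kb.

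Measured bodies of ribosomal protein genes were low on average. The 15 bodies averaged 18.8% ± 2.50 and the median body stood at 13.9%, whereas the 10529 bodies of all genes averaged 44.9% ± 2.37 with a median of 42.2%. These levels moved with the limits of the regions. With promoters at every transcript start, 6 member bodies averaged 34.1% and those of all genes 54.4%, and with a promoter ending 0.5 kb after the start, 51 member bodies averaged 6.39% and those of all genes 34.3%. Members were thus below all genes in each of these settings, but their body minus promoter difference ranged from 1.30 to 30.2 points around the 18.1 points found here. At matched distances among genes with promoters below 50%, members stood at 19.7% against 14.2% from 1 to 2 kb downstream and at 22.5% against 37.9% from 2 to 5 kb, while all autosomal genes whatever their promoter stood at 18.4% and 39.98%. The part that gene length plays in the body levels was not tested. The 9 large subunit bodies averaged 24.1% and the 6 small subunit bodies 10.9%. In 13 members with both regions, the body was above the promoter in 9 and below it in 1 (limma, adjusted p below 0.05 over all genes), against 86.4% above and 3.92% below among 7809 genes. Without STD mouse 1 or STD mouse 2, 7 of 13 were above, and with the 0.5 kb promoter 12 of 45 were, against 77.1% of all genes. The median body minus promoter difference was 17.4 points in members and 36.5 points in all genes. Many ribosomal protein genes have near-identical processed pseudogenes, and how surely reads over their exons were placed was not tested.

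The largest differences were found in genes of both subunits. Rpl3, which lies near the peptidyl transferase centre, had body values of 48.3%, 59.1% and 53.4% in the STD mice and 62.7%, 53.3% and 50.9% in the ENR mice over 6 sites, 51.5 points ± 2.22 (SE) above its promoter (limma, adjusted p = 1.374e-07). Rpl6, a large subunit protein, had body values of 61.4%, 35.7% and 70.0% in the STD mice and 67.1%, 23.7% and 38.0% in the ENR mice over 4 sites, 48.3 points ± 6.53 above its promoter (limma, adjusted p = 0.0001678). The lowest Rpl6 body value was thus still well above every promoter value of the gene, which reached 2.43% at most.

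Rps6, the small subunit protein that S6 kinases phosphorylate, had a body of 37.4% ± 5.63 over 5 sites, with 29.8% in the lowest mouse and 44.0% in the highest. Its body was 35.3 points ± 2.21 above its promoter (limma, adjusted p = 1.293e-06). Rpl22, whose body stood at 34.8% ± 9.26 over 7 sites, differed by 33.5 points ± 3.32 (limma, adjusted p = 2.422e-05). Rpl13 had a body of 30.9% ± 7.78 over 3 sites, 29.3 points ± 2.85 above the promoter (limma, adjusted p = 2.126e-05). In all 5 genes every mouse had a higher body than promoter.

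The smallest differences came from Rps24, Rps14, Rpl18, Rpl35 and Rps10. Rps24, whose body stood at 3.32% ± 0.717 over 28 sites, was called at 1.48 points ± 0.475 above its promoter (limma, adjusted p = 0.01858). Rps14 (3.33%) and Rpl18 (1.31%) had body minus promoter differences of -0.0262 and -0.144 points, and neither difference was called (limma, adjusted p = 0.9792 and 0.8253). The Rpl35 body, at 10.1%, was also not called (limma, adjusted p = 0.3205). Rps10 was the member called in the other direction, with a body of 1.95% ± 0.311 over 55 sites, 12.8 points below its promoter (difference -12.76, SE 1.05, limma, adjusted p = 7.524e-06). With the RefSeq start the promoter of Rps10 stood at 1.63% and the 8 sites outside it at 13.6%. Of these 8 sites, 6 lie upstream of the GENCODE start, so the turned direction there does not compare a promoter with the gene after it.

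Several of these low bodies went with late starts. The RefSeq starts of Rpl18 and Rps24 lie 2614 and 3553 bp downstream of the GENCODE gene starts, so that CpGs around a second start count as body. With the RefSeq start, the Rps24 promoter stood at 0.432% ± 0.361 and the 34 sites outside it at 4.18% ± 1.27. The Rpl18 promoter stood at 1.31% and the 29 sites outside it at 1.45%. Those outside sites include the 33 GENCODE promoter sites of Rps24 and are the GENCODE promoter sites of Rpl18, upstream of the RefSeq promoter. They are thus not levels of the gene after the RefSeq start. When every annotated transcript start was given a promoter, the Rps14 promoter became 1.73% ± 0.498 and its body 26.6% ± 12.9. Bodies of Rps10, Rpl18, Rps2 and Rpl17 then held no site, and that of Rps24 held 1 site at 81.4%. Rps2 (1.08%) and Rpl17 (1.15%) had the lowest of the 15 bodies. The 6 member bodies below 5% were those of Rps2, Rpl17, Rpl18, Rps10, Rps24 and Rps14, and none of them stayed low under this setting.

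Rpl41, which encodes the smallest ribosomal protein and was singled out after its values were seen, had a body that split the mice. It stood at 24.6%, 19.3% and 4.0% in STD and at 27.9%, 3.47% and 3.88% in ENR, over 7 exon sites. The 3 high mice and the 3 low mice each came from both housings, and the low ones include both libraries numbered 3, which were also the lowest over all sites. Their part in the split was not tested. The body was called above the promoter (12.4 points ± 4.13, limma, adjusted p = 0.02151), although 3 mice did not rise above 5%.

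**Figure D3:**
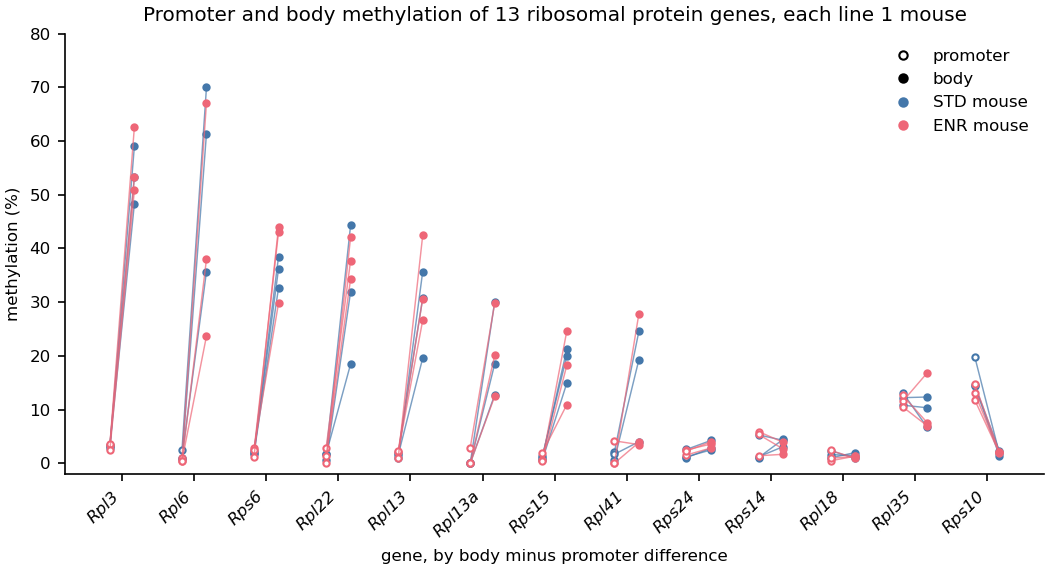
Promoter (open points) and body (filled points) methylation in percent of the 13 ribosomal protein genes with both regions, ordered by their difference, with 1 line for each mouse (blue STD, red ENR). Rpl3 and Rpl6 rise by 51.5 and 48.3 points at the left, and Rps10 falls by 12.8 points at the right.

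Methylation within promoters depended on where a CpG lay. Among member promoters below 50%, the 587 sites in CCGG, the sequence that MspI cuts, averaged 5.62% ± 0.317, and the 2443 other sites 0.921% ± 0.0476. Sites in CCGG were higher in 73 of the 73 members with both kinds. Only 38 of the CCGG sites (6.47%) were at 0 in all 6 mice, against 1556 of the others (63.7%). This split was chosen after seeing the data, and the part that the ends of the cut fragments play in it was not tested. Without sites in CCGG the median member promoter stood at 0.549% and the median of all genes at 0.647%.

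The ETS motif bears on this split because it contains the MspI sequence. Of the 88 members, 62 matched a RefSeq promoter window of 250 bases before to 50 after the start. The letters CCGGAAG, searched on both strands for ETS factors, were found in 24 member windows (38.7%) and in 12.6% of the 15703 windows of all genes. GGGCGG for SP1 was found in 37 (59.7%) against 48.8%, and CCATNTT for YY1 in 19 (30.6%) against 15.1%, also on both strands. Member windows held a median of 22 CpGs against 15. The Rpl37 stretch shown above has its ETS match beside the start, in capitals here.
Rpl37: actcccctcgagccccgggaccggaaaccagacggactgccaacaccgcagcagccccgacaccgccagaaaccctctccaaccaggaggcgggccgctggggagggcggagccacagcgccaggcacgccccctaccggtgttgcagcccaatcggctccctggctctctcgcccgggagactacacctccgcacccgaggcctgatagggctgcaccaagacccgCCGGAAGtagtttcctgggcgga
The CpG of that match, 22 bases before the start, stood at 1.03%, 10.7% and 8.64% in STD and at 0%, 8.82% and 5.0% in ENR. The CpG 4 bases before the start stood at 0.196% on the plus strand and at 0% on the minus strand. A match of letters is not a bound site.

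Over the family, the 22 CpG sites in ETS matches of member windows averaged 5.31% ± 2.31, the 83 other CCGG sites 5.28% ± 0.651, and the 541 remaining CpGs 0.519% ± 0.0972. In windows of all genes with promoters below 50% the same 3 kinds averaged 5.74% ± 0.242, 5.60% ± 0.151 and 0.898% ± 0.0241. The level at ETS matches thus differed from that at other CCGG sites by less than the spread between mice. Its spread came from ENR mouse 2, at 9.82%, while the other mice ranged from 3.37% to 5.02%.

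**Figure D4:**
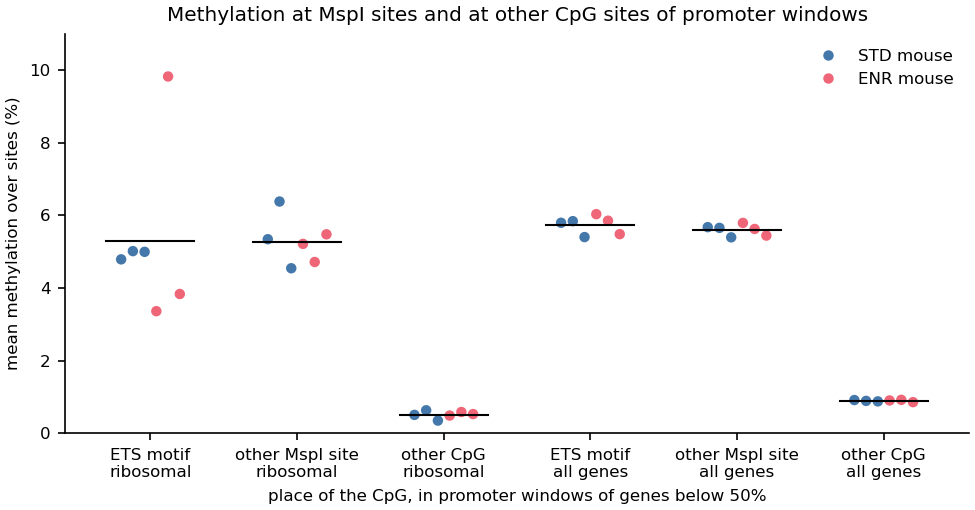
Mean methylation in percent (vertical axis) over CpG sites in ETS matches, at other MspI sites and at other CpGs of promoter windows, for ribosomal protein genes and all genes with promoters below 50%; each point is a mouse (blue STD, red ENR) and bars are means. ETS matches and other MspI sites lie near 5.3% in members, and other CpGs near 0.52%.

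Several members host small nucleolar RNAs, which guide the modification of ribosomal RNA, in their introns. In all, 28 members hold 56 annotated snoRNA genes. Promoters of the 26 canonical hosts with enough sites averaged 1.86% ± 0.198, and those of the 43 canonical genes without a snoRNA 2.19% ± 0.175. The mean of the hosts was the lower in each of the 6 mice, while the medians over genes were 1.39% and 1.42%. The hosts were not tested as a group.

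Whether enrichment changed methylation of these genes was asked at 3 levels. No member promoter was called (limma, adjusted p below 0.05), and none of 12793 promoters of all genes was (0%). At an unadjusted p below 0.05 stood 5 of 76 members (6.58%: Rps26, Rps3, Rplp2, Rps15a and Rpl29) and 4.55% of all genes. The smallest adjusted p of a member was 0.9705 by limma, and 0 members were called under each of 19 alternatives. The mean over members was 5.50% ± 0.161 in STD and 5.38% ± 0.316 in ENR, a difference of -0.121 points, against -0.106 points over all genes. Leaving out 1 mouse gave from -0.220 points (ENR mouse 1) to 0.061 points (ENR mouse 3). Without both libraries numbered 3 the difference was 0.0187 points, and with libraries centred -0.0154. Lower in ENR were 37 promoters and higher 39.

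All ENR mice lay below all STD mice at 6 of 76 member promoters (Rpl32, Rps3a1, Rpl30, Rps12, Rps15a and Rpl29), against 5.55% of all genes. All ENR mice lay above at 4 (Rps26, Rps3, Rpl11 and Rpl12), against 4.14%. Only at Rpl29 (chr9:106429454-106431568, plus strand), a large subunit protein, did the group means of such a promoter differ by more than 2 points. Its promoter stood at 6.46%, 3.43% and 3.20% in STD and at 1.17%, 2.20% and 0.361% in ENR over 20 sites, a difference of -3.12 points (limma, unadjusted p = 0.01358, adjusted p = 0.9705). Part of it came from a CpG in an exon, 857 bp after the start, at 30.9%, 39.5% and 18.8% in STD and at 0% in each ENR mouse. Without this site the means were 3.03% ± 1.90 and 1.31% ± 0.970 and the groups overlapped.

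**Figure D5:**
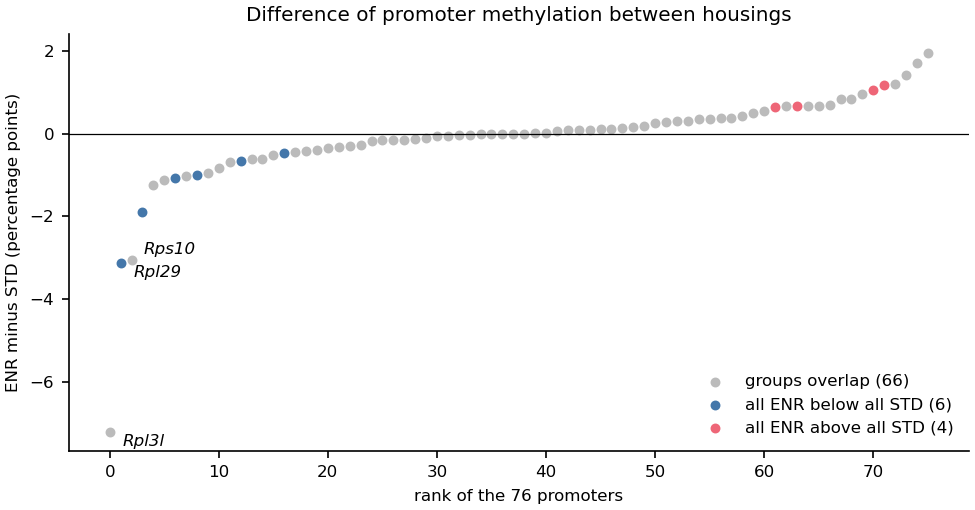
Difference of promoter methylation between ENR and STD in percentage points (vertical axis) for 76 ribosomal protein genes in rank order; blue and red points are promoters whose groups do not overlap. Rpl3l lies lowest with overlapping groups, and Rpl29, at -3.12 points, is the largest difference without overlap.

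Of the 15 member bodies, none was called (limma, adjusted p below 0.05) and none of 10523 bodies of all genes was (0%). At an unadjusted p below 0.05 stood 0 members and 3.28% of all genes, and 0 members were called under each of 19 alternatives. In 0 of 15 bodies did the groups separate, with 5.27% of all genes lower and 2.24% higher in ENR. The mean over members was 18.88% ± 2.35 in STD and 18.75% ± 3.18 in ENR, a difference of -0.133 points, against -1.05 points in all genes. The sign in members was not stable. Leaving out 1 mouse gave from -1.97 points (ENR mouse 1) to 1.19 points (STD mouse 1), and centring the libraries gave 0.917 points.

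Single sites gave the same count. Of 1687 member sites tested, 0 were called (limma, adjusted p below 0.05 and a difference over 25 points), as were 0 of 615152 sites in all (0%), and 24 member sites (1.42%) had an unadjusted p below 0.05, against 2.68% of all sites. Under 10 alternatives the count for members was also 0. By size alone, 7 of 3458 member sites differed by over 25 points, against 1.94% of all sites. This count rose to 17 without ENR mouse 1, 12 without STD mouse 1 or ENR mouse 3 and 11 without STD mouse 2 or ENR mouse 2, and it was 16 by the difference of medians. The 7 lay in 6 genes, and Rps14, with 2 intron sites 4 bp apart, had most.

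The Rps14 sites (chromosome 18, positions 60754555 and 60754559) differed by -42.9 and -25.4 points. The former stood at 75.3%, 59.8% and 55.6% in STD and at 41.5%, 11.9% and 8.33% in ENR, without overlap. The latter stood at 78.5%, 68.2% and 53.6% in STD and at 69.6%, 54.5% and 0% in ENR, and its groups overlapped. The other sites were that of Rpl29 above, 1 site in Rpl3l (-33.0 points), and 1 each in Rpl13 (29.0), Rpl3 (26.8) and Rpl22 (25.7). Each of the 7 had an adjusted p of 0.8516 (limma).

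Other genes of the translation machinery, from lists fixed for this work, also had low promoters. Of 67 mitochondrial ribosomal protein promoters, 65 (97.0%) lay below 5%, against 86.0% of all genes, with a mean of 2.21% ± 0.123. Of 23 ribosome biogenesis promoters, 22 (95.7%) lay below 5%, and Nop10, a protein of H/ACA snoRNPs named after its value was seen, stood at 90.7%. With Nop10 the mean of the 23 was 5.53% ± 0.138, near the 5.50% of all genes. Translation factors with 5′ terminal oligopyrimidine messages averaged 1.79% ± 0.156 (13 genes), and genes of growth signalling to the ribosome 1.09% ± 0.459 (9 genes).

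The 20 mitochondrial ribosomal protein bodies averaged 55.9%, against 18.8% for the 15 cytosolic ones. With promoters at every transcript start, 13 mitochondrial bodies averaged 69.8% and 6 cytosolic ones 34.1%, against 54.4% for all genes. Of 18 mitochondrial genes with both regions, 16 were called above their promoter (limma, adjusted p below 0.05), a share near the 86.4% of all genes. Among genes of growth signalling, 7 of 8 were called above, also near that share. In biogenesis genes 6 of 7 were above and 1 below, and in translation factors 2 of 4 were above and 1 below.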

How the data were processed

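Methylation was measured by RRBS in 6 mice, 3 per housing, grouped by the labels. The authors trimmed reads with Trim Galore 0.4.0 and cutadapt 1.8.1, aligned them to mm10 with Bismark 0.16.1 and called sites with methylKit 1.5.2 (versions per the submitters' processing notes), cutting 2 more bases from reads with adapter. The deposited values are the percent of methylated reads at each site, kept by the authors where at least 10 reads covered it in enough mice. Counts and depth were not used here, so no count test or interval was made and the number of mice limits the precision.

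Sites were placed by GENCODE M21 gene starts and ends and averaged per region and mouse. ENR and STD, and body and promoter within mice, were compared with limma 3.58.1 (R 4.3.3; empirical Bayes with a variance trend) over all genes or sites, with Benjamini-Hochberg adjustment, leaving out regions or sites without variation. Paralogs were compared by exact sign-flip tests. The fit was tested on simulated data. Members and lists were chosen with earlier results of these data known. Genes were named by promoters of 10% or more, the 5 largest and 5 smallest body differences, separated groups over 2 points apart, most sites, paralogs, most sites over 25 points, and no site. Alternatives changed site minimum, region limits, scale, variance model, libraries and sites in CCGG.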

Additional observations from a re-analysis of the deposited data

How the results depend on the processing

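For housing, 0 promoters, bodies and sites of members were called in every alternative, including the replicate block with the number as pair (0 calls), without either library numbered 3, and without both for promoters and bodies. Over all genes, 1 promoter, no member, was called without ENR mouse 3, without a variance trend and on the arcsine scale. The numbers were not taken as pairs, since the labels do not say that a number ties an ENR to a STD mouse. Deviations of same-numbered mice correlated at 0.0552, 0.0319 and 0.125, and those of differently numbered mice at -0.082 to 0.041. For number 3, the 0.125 stood against -0.082 to -0.059. The mean promoter level of 5.44% became 5.07% with the promoter ending 0.5 kb after the start, 5.19% at RefSeq starts, 4.54% without sites in CCGG, 2.94% with sites pooled, 1.49% as the mean over mice of the median member (the median of gene means was 1.42%) and 2.07% in canonical subunits only. The body level of 18.8% became 22.3% with at least 1 site, 15.6% with at least 5, 34.1% with promoters at any transcript start, 6.39% with the 0.5 kb promoter, 25.7% without promoters of other genes, 24.1% at RefSeq starts, 5.80% with sites pooled and 13.1% as the mean over mice of the median (13.9% as the median of gene means). Body minus promoter, 18.1 points, became 21.1, 15.4, 30.2, 1.30, 22.6, 24.2 and 2.86 points under those settings down to pooling, and 23.4 without sites in CCGG. At RefSeq starts, sites more than 1 kb upstream of the start also counted as body, as in Rps10, Rpl35, Rps24 and Rpl18. The 24.1% and 24.2 points are therefore not levels of gene bodies alone. Members with the body above the promoter, 9 of 13, numbered 14 of 21 with at least 1 site, 5 of 6 with any transcript start and 5 of 8 without sites in CCGG, where fewer or more members were tested. The share fell most with the 0.5 kb promoter, to 12 of 45 (26.7%, against 77.1% of all genes), and the number fell to 7 of 13 without STD mouse 1 or without STD mouse 2. The 7 sites over 25 points numbered 17 over 20 points, 1 over 40 and 16 by medians, and from 9 to 17 when 1 mouse was left out, most without ENR mouse 1. The settings with RefSeq starts and without CCGG sites were added after seeing the data, and the cause of these moves was not tested.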

Other observations

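The X-linked ribosomal protein genes, outside the autosomal rule, had promoters of intermediate methylation in these female mice. Rpl10, the parent of Rpl10l, stood at 46.5%, 41.6% and 44.5% in STD and at 20.5%, 32.3% and 36.3% in ENR over 15 sites, and the groups did not overlap, which was not tested. Of 406 X-linked promoters, 18 (4.43%) had all ENR mice below all STD mice and 4 (0.985%) the reverse. Rpl39 averaged 24.4% (8.36% to 32.4%), Rps4x 21.4% (6.18% to 31.2%) and Rpl36a 20.7% (2.86% to 33.8%). In Rpl39 and Rps4x the libraries numbered 3 were the lowest of their groups. The median of 406 X-linked promoters was 27.0%, and their mean was 22.6% in ENR mouse 3 and 27.5% in STD mouse 3, against 34.3% to 35.8% in the other mice.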
